A study of Mus musculus with 6 samples.

Results

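DNA replication and S phase genes were followed in mouse natural killer (NK) cells of 2 Ly49 subsets. They are 53 of the 21442 genes measured, and were chosen for what their products do, as licensing factors, helicase, clamp, polymerase, nucleotide supply, fork, chromatin and E2F genes. All 53 were found by their current or older symbol, and no filter on signal was applied, so every one was tested. Each gene is read by 3 to 51 exon-level probe sets, 802 in all.

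Spleen cells of C57BL/6 mice (C57BL/5 in the strain label) were depleted of T cells with antibody to Thy1.2 and complement, and cultured for 7 days in medium holding interleukin-2 at 1000 IU. They were then sorted as CD3- CD122+ cells. Ly49C/I+ cells carried Ly49C or Ly49I and no Ly49G2, and Ly49G2+ cells carried Ly49G2 and neither of the other receptors, with 3 arrays per subset. Both subsets had been through the same depletion and culture, and the labels used here give no age, sex or number of mice and do not say whether the arrays came from separate animals. The p-values therefore measure the spread between these arrays, which may be technical, and 3 arrays per subset limit the precision.

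Replication is prepared in G1, when the origin recognition complex with Cdc6 and Cdt1 loads the MCM helicase onto DNA. At the start of S phase Cdc45 and the GINS complex join MCM to form the active helicase, and primase, the replicative polymerases and the PCNA clamp copy the strands behind it. Many of these genes are targets of E2F transcription factors and are transcribed most around the entry into S phase, which interleukin-2 drives in cultured NK cells.

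Ly49C/I+ cells had more mRNA of most of the replication genes measured. Of the 53 genes, 45 passed limma's test with more mRNA in Ly49C/I+ cells, 0 passed with more in Ly49G2+ cells and 8 did not pass, at an adjusted p of 0.05 over all genes. Over all 21442 genes, 6.16% were called in the direction of Ly49C/I+ cells and 3.72% in that of Ly49G2+ cells. At an unadjusted p under 0.05 the counts were 46 and 0 of the 53, where 12.3% and 10.7% of all genes were called in those directions. With p-values from the authors' deposited table, adjusted in the same way, they were 34 and 0, where 3.24% of all genes were called in the direction of Ly49C/I+ cells. An alternative analysis with a filter at the median signal kept 10721 genes, with all 53 among them. There 46 of the 53 and 15% of the genes kept were called in the direction of Ly49C/I+ cells. The differences were small. The median of the 53 genes was 0.33 on the log2 scale (1.26-fold), against -0.01 for all genes, with a range of -0.03 to 0.57. It was above 0 in 51 of the 53 genes, and in 45.6% of all genes. None of the 53 reached 1.5-fold, which 0.364% of all genes did in the direction of Ly49C/I+ cells. In sorted cells measured in bulk, a larger share of cells in S phase and more of each mRNA per cell cannot be told apart. The subsets also differed in 4 of 12 T cell marker genes, given below, and the part of this in the results was not tested.

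**Figure D1:**
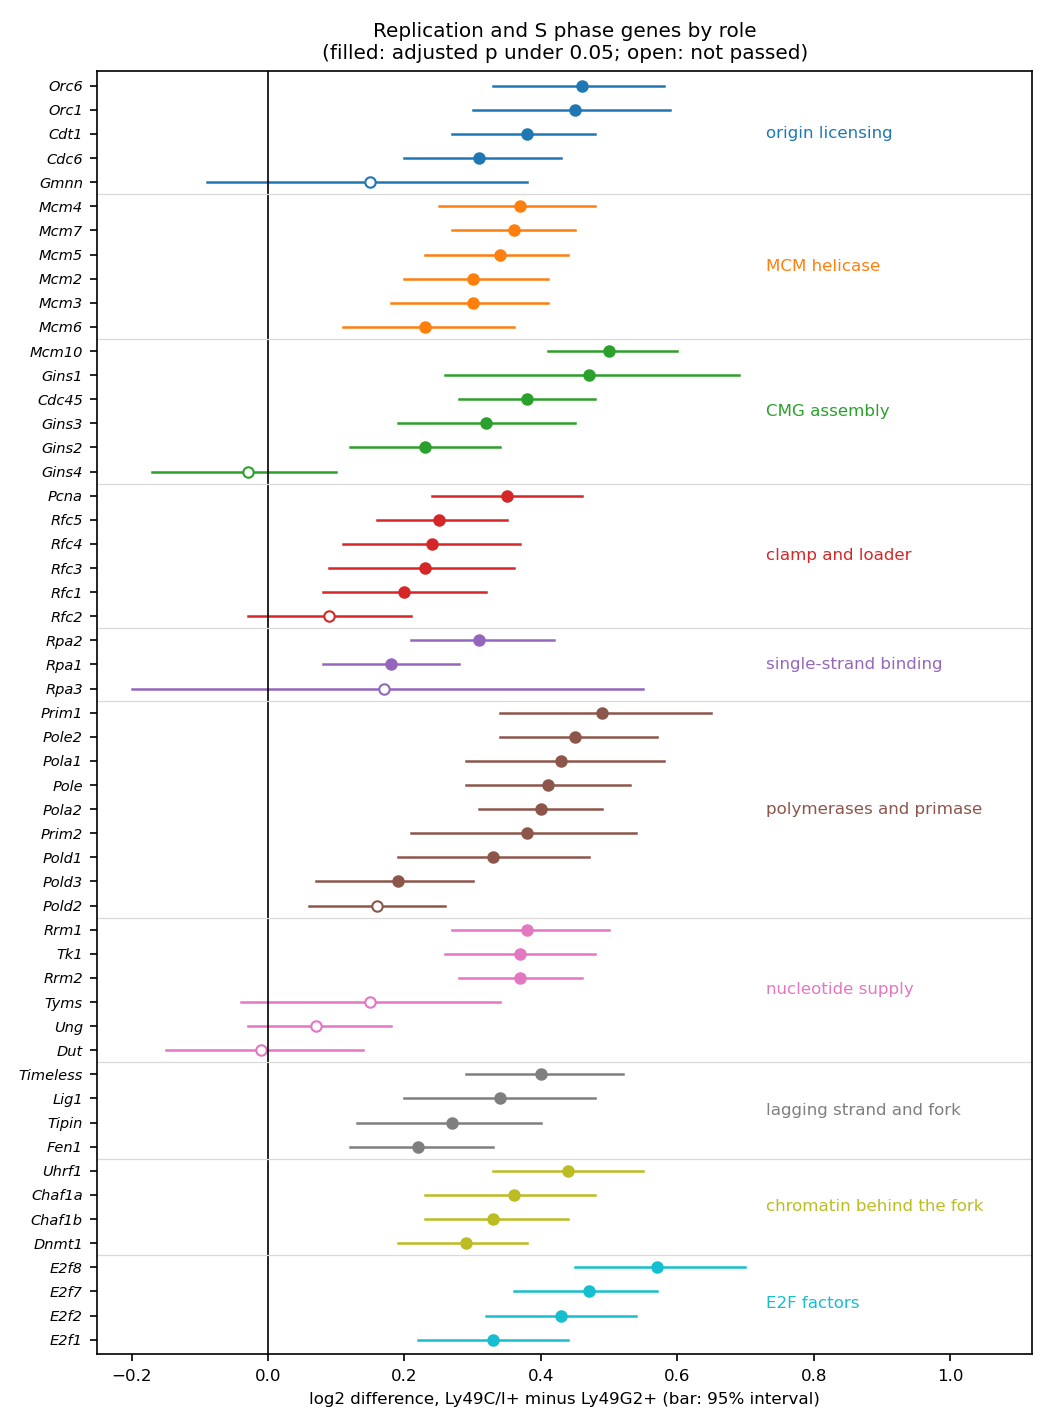
Log2 difference of the 53 genes, Ly49C/I+ minus Ly49G2+, with the 95% interval of limma as a bar, grouped by role (vertical axis). Filled points passed an adjusted p of 0.05 and open points did not, and 51 of the 53 points lie to the right of 0.

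The 2 subsets were fully separated on the arrays for most of these genes. All 3 Ly49C/I+ arrays lay above all 3 Ly49G2+ arrays in 46 of the 53 genes, the opposite held in 0, and 7 overlapped, where 14.3% and 13.5% of all genes were separated in those directions. As a median over the 53 genes, the arrays lay 0.18, 0.18 and 0.14 above each gene's mean in Ly49C/I+ cells, and at -0.14, -0.20 and -0.14 in Ly49G2+ cells. Ly49G2+ replicate 2 held the lowest of the 6 values in 34 of the 53 genes, against 11 for replicate 1 and 6 for replicate 3. Over all genes these arrays held the lowest value in 21.8%, 13.1% and 12.1%. The same array stood apart from the other Ly49G2+ arrays in a principal component analysis of all genes. Without it, 40 of the 53 genes were called higher in Ly49C/I+ cells, against 5.19% of all genes.

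**Figure D2:**
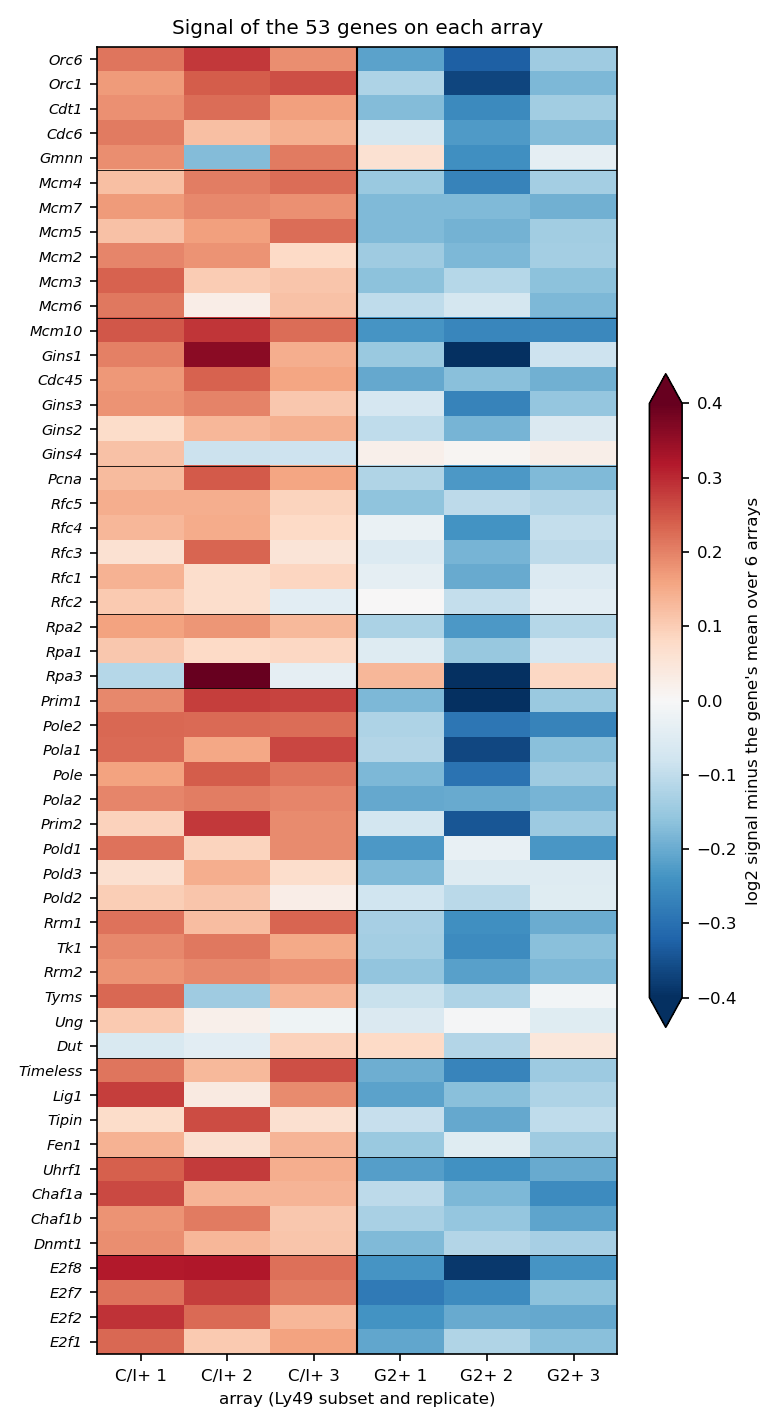
Log2 signal of each of the 53 genes (rows, in order of role) on each of the 6 arrays (columns), minus the gene's mean over the 6 arrays, with colours ending at 0.4 above and below it. The 3 Ly49C/I+ columns are above the mean and the 3 Ly49G2+ columns below it in most rows, and the groups overlap in 7 rows: Gmnn, Gins4, Rfc2, Rpa3, Tyms, Ung and Dut.

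The identity of the sorted cells was checked with marker genes. The NK receptor gene Ncr1 averaged 12.63 in Ly49C/I+ cells, against 12.56 in Ly49G2+ cells (log2 signal), and the summed level of 9 NK markers was 15.37 to 15.46 in Ly49C/I+ cells, against 15.35 to 15.40 in Ly49G2+ cells. Of the 9, Klrk1 passed with more in Ly49C/I+ cells, at 0.21 (limma adjusted p 0.0302), and 8 did not pass. Of 12 T cell markers, 0 passed with more in Ly49C/I+ cells and 4 with more in Ly49G2+ cells (Cd3e, Cd3d, Cd3g and Cd8a). Their summed level, on the log2 scale, was 13.34 to 13.38 in Ly49C/I+ cells, against 13.66 to 13.70 in Ly49G2+ cells. Cd3e itself averaged 8.34 in Ly49C/I+ cells, against 10.57 in Ly49G2+ cells, a difference of -2.23 (limma adjusted p 6.05e-09). The lowest difference over all genes was also -2.23. Cd3d, Cd3g and Cd8a differed by -1.77, -0.99 and -0.72 (limma adjusted p 8.12e-08, 3.71e-05 and 0.000337). The other 8 T cell markers did not pass, and the median difference of the 12 was -0.08. The part of Cd3e, Cd3d, Cd3g and Cd8a in the results was not tested. None of 6 B cell or 4 erythroid markers passed, and of 8 myeloid markers Itgam passed with more in Ly49C/I+ cells and Cd14 with more in Ly49G2+ cells. For 1 array, replicate 1 of Ly49G2+, the source field gives Ly49C/I+ while the title and description give Ly49G, and the title was used. Cd3e on that array was at 10.57, near the other Ly49G2+ arrays at 10.59 and 10.55. The Ly49C/I+ arrays were at 8.37, 8.35 and 8.31. Without that array 39 of the 53 genes were called higher in Ly49C/I+ cells, against 4.81% of all genes.

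Promoter sequences are shown because many of these genes are known E2F targets. The genes were chosen for what their products do, so the shares below describe that choice and not a difference between the subsets. RefSeq (GRCm38.p6) promoters of 300 bases, from 250 before to 50 after the gene start, were matched for 44 of the 53 genes. The following 4 forms of the E2F site were searched on both strands: TTTGGCGC, TTTCCCGC, TTTCGCGC and TTTGCCGC. Matches to different forms may overlap. At least 1 form was found in 18 of the 44 promoters (40.9%), against 704 of 27025 gene promoters (2.60%). In a list of further genes of the same processes, described with its values at the end, it was found in 16 of 53 promoters (30.2%). The first 3 forms were each found in 18.2% of the 44 promoters, against 0.585%, 1.24% and 0.374% of all promoters, and TTTGCCGC in 0 of the 44 against 0.507%. General promoter elements, searched in the same way, were also more frequent, CCAAT with 61.4% against 41.1% of all promoters and GGGCGG with 79.5% against 38.2%. The 11 genes with a match wholly before the start site are given here 5′ to 3′ on the gene's strand, with up to 30 bases on each side and the matched letters in capitals.
Cdc6, chr11:98907983-98908050, plus strand: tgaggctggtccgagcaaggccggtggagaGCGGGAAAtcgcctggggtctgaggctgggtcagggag
Dnmt1, chr9:20952805-20952872, minus strand: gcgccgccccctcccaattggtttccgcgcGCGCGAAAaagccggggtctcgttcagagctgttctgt
E2f7, chr10:110745211-110745278, plus strand: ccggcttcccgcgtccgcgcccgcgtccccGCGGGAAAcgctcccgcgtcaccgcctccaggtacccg
Gins3, chr8:95633488-95633555, plus strand: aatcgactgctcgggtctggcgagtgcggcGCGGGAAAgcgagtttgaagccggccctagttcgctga
Mcm5, chr8:75109326-75109397, plus strand: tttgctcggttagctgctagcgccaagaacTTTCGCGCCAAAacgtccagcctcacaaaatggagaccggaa
Mcm6, chr1:128359715-128359845, minus strand: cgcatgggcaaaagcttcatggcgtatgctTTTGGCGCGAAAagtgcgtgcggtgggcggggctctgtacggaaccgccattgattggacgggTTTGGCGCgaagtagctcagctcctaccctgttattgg
Mcm7, chr5:138172011-138172078, minus strand: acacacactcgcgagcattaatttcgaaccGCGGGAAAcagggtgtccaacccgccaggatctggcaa
Orc1, chr4:108579397-108579453, plus strand: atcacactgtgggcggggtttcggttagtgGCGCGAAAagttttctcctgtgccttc
Pola1, chrX:93632256-93632323, minus strand: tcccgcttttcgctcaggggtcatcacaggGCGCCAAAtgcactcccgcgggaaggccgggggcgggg
Rfc3, chr5:151651209-151651248, minus strand: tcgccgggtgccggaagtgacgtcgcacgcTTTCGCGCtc
Uhrf1, chr17:56304098-56304165, plus strand: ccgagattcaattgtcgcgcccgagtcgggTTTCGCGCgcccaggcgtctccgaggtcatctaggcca
In Mcm5 and Mcm6 the forms TTTCGCGC and TTTGGCGC overlap on opposite strands, and Mcm6 has a further match nearer the start. In Cdt1, E2f2, Lig1, Mcm3, Pold1, Pold3 and Pole2 the match lay at or after the start site. Of the 44 genes with a promoter 39 passed the test, among them all 18 with a match. The size of the difference was alike with and without a match, with a median of 0.34 over those 18 genes and 0.33 over the 26 without. The 5 genes with a promoter that did not pass had no match. As most of the 44 passed, these counts cannot tell whether a match goes with the call, which was not tested. A match is a string of letters in this window and does not show binding.

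Of the origin licensing genes, 4 of 5 were higher in Ly49C/I+ cells, with a median difference of 0.38. Orc6, a subunit of the origin recognition complex, was measured at 9.94, 10.00 and 9.91 in Ly49C/I+ cells, against 9.51, 9.39 and 9.58 in Ly49G2+ cells (log2 signal). The groups were well apart, with a difference of 0.46 ± 0.056 (SE) and a limma adjusted p of 0.000887. Orc1, the large subunit that binds ATP and is made in a cell cycle dependent way, differed by 0.45 (limma adjusted p 0.00194). The loading factors Cdt1 and Cdc6 differed by 0.38 and 0.31 (limma adjusted p 0.000922 and 0.00447). Gmnn encodes geminin, which blocks Cdt1 after S phase has begun. It was at 7.39, 7.03 and 7.41 in Ly49C/I+ cells, against 7.26, 6.96 and 7.17 in Ly49G2+ cells. These values overlap, with a difference of 0.15 (95% interval -0.09 to 0.38) and a limma adjusted p of 0.47. The difference was 0.27 without Ly49C/I+ replicate 2 and 0.06 without Ly49G2+ replicate 2, and did not pass in any of the 18 alternative analyses. Of the other origin recognition subunits, which were not among the 53, Orc2, Orc3, Orc4 and Orc5 had differences of -0.02, 0.03, -0.04 and 0.10, and none passed. Whether Orc1 and Orc6 differ from them in their change was not tested.

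All 6 subunits of the MCM helicase were higher in Ly49C/I+ cells, with differences between 0.23 and 0.37. Mcm4 was at 10.48, 10.57 and 10.59 in Ly49C/I+ cells, against 10.22, 10.10 and 10.23 in Ly49G2+ cells, a difference of 0.37 ± 0.052 (SE) with a limma adjusted p of 0.00195. Mcm7 and Mcm5 differed by 0.36 and 0.34, and Mcm2 and Mcm3 by 0.30 each. Mcm6 had the smallest difference of the 6, at 10.79, 10.60 and 10.69 in Ly49C/I+ cells against 10.48, 10.51 and 10.40 in Ly49G2+ cells. Its groups did not overlap, with 0.23 ± 0.057 (SE) and a limma adjusted p of 0.0278. That call was lost without any 1 of Ly49C/I+ replicates 1 or 3 or Ly49G2+ replicates 1 or 3 (limma adjusted p 0.0675 to 0.0975). Of the related genes outside the 53, Mcm8 was higher in Ly49C/I+ cells by 0.42 (limma adjusted p 0.000914). Mcm9, its partner in repair, had a difference of 0.18 (limma adjusted p 0.112), and Mcmbp, which binds MCM subunits, one of -0.12 (0.138), and neither passed.

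Of the 6 genes that turn MCM into the active helicase, 5 were higher in Ly49C/I+ cells. Mcm10, a factor needed to fire origins, had the largest difference of this role. It was at 9.41, 9.45 and 9.38 in Ly49C/I+ cells, against 8.93, 8.90 and 8.90 in Ly49G2+ cells. No array came near the other group, and the difference was 0.50 ± 0.042 (SE), with a limma adjusted p of 0.000153. Cdc45 differed by 0.38, and the GINS subunits Gins1, Gins3 and Gins2 by 0.47, 0.32 and 0.23 (limma adjusted p 0.0126, 0.00616 and 0.0145). The fourth GINS subunit, Gins4, was at 10.68, 10.47 and 10.47 in Ly49C/I+ cells, against 10.58, 10.57 and 10.58 in Ly49G2+ cells. Ly49C/I+ replicate 1 was the highest of the 6 and the other 2 the lowest, so the groups overlap around a difference of -0.03 (95% interval -0.17 to 0.10, limma adjusted p 0.802). This interval ends below the differences of the other 3 GINS genes, but the difference between subunits was not tested. Gins1 was not called without Ly49C/I+ replicate 2 (limma adjusted p 0.06), nor Gins2 without Ly49C/I+ replicate 2 or 3 (limma adjusted p 0.0575 and 0.0654).

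The clamp and its loader had a median difference of 0.23, and 5 of 6 genes passed. Pcna, the sliding clamp that holds polymerases on DNA, was at 11.77, 11.89 and 11.80 in Ly49C/I+ cells, against 11.52, 11.41 and 11.46 in Ly49G2+ cells. Its difference was 0.35 ± 0.05 (SE), with a limma adjusted p of 0.00192. Pcna stands on 2 rows of the array, which differed by 0.44 on 4 probe sets and 0.27 on 6, and the arrays of the subsets did not overlap on either row. Its 10 probe sets were uneven, with differences of 0.09 to 1.02, the highest on the fourth, which also had the lowest signal. With the median over probe sets the difference was 0.20 and the call was lost (limma adjusted p 0.205), and the authors' deposited table gave 0.22 and 0.24 for the rows. The clamp loader genes Rfc5, Rfc4, Rfc3 and Rfc1 differed by 0.25, 0.24, 0.23 and 0.20. Rfc2 was at 9.89, 9.85 and 9.74 in Ly49C/I+ cells, against 9.79, 9.69 and 9.74 in Ly49G2+ cells. Its groups overlap, with a difference of 0.09 (95% interval -0.03 to 0.21) and a limma adjusted p of 0.366. Of the loader calls, those of Rfc1 and Rfc3 were lost when any 1 of the 6 arrays was left out (limma adjusted p up to 0.148 and 0.125), and that of Rfc4 without any array but Ly49G2+ replicate 1 (up to 0.104).

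Single-strand binding genes were called in 2 of 3 cases. Rpa2 was at 9.69, 9.71 and 9.66 in Ly49C/I+ cells, against 9.41, 9.30 and 9.42 in Ly49G2+ cells, a difference of 0.31 ± 0.047 (SE) with a limma adjusted p of 0.00257. Rpa1, the large subunit of this trimer, differed by 0.18, and its call was lost without any 1 of the 6 arrays (limma adjusted p 0.0584 to 0.103). Rpa3, read by 3 probe sets, was at 8.73, 9.25 and 8.81 in Ly49C/I+ cells, against 8.98, 8.36 and 8.93 in Ly49G2+ cells. Replicate 2 was the highest of the 6 in Ly49C/I+ cells and the lowest in Ly49G2+ cells, while in replicates 1 and 3 the Ly49C/I+ arrays lay below the Ly49G2+ arrays. The difference was 0.17 (95% interval -0.20 to 0.55), with a limma adjusted p of 0.609.

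Polymerase and primase genes had a median difference of 0.40, and 8 of 9 passed. Prim1, the catalytic subunit of primase, was at 9.74, 9.82 and 9.81 in Ly49C/I+ cells, against 9.36, 9.13 and 9.39 in Ly49G2+ cells. The subsets were clearly apart, at 0.49 ± 0.069 (SE) with a limma adjusted p of 0.00164. The other primase subunit gene, Prim2, differed by 0.38, and the genes of polymerase alpha, which extends the primers, by 0.43 (Pola1) and 0.40 (Pola2). Polymerase epsilon, the main leading strand enzyme, differed by 0.41 (Pole) and 0.45 (Pole2). The lagging strand enzyme polymerase delta had the smaller differences of this role, 0.33 for the catalytic subunit Pold1, 0.19 for Pold3 and 0.16 for Pold2. Pold2 was at 11.53, 11.55 and 11.46 in Ly49C/I+ cells, against 11.36, 11.33 and 11.39 in Ly49G2+ cells. Its groups did not overlap, but the limma adjusted p was 0.0583. The calls of Prim2 without Ly49C/I+ replicate 2 (limma adjusted p 0.05029), Pold1 without Ly49C/I+ replicate 3 (0.051) and Pold3 without any array but Ly49G2+ replicate 2 (up to 0.163) were lost. Pold4, a small subunit of the same polymerase outside the 53, was the 1 of 69 related genes higher in Ly49G2+ cells. It was at 10.94, 10.99 and 10.95 in Ly49C/I+ cells, against 11.12, 11.08 and 11.14 in Ly49G2+ cells, a difference of -0.15 ± 0.043 (SE). Its limma adjusted p, 0.04995, lay at the threshold, and it passed in 5 of 18 alternative analyses.

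Nucleotide supply, with which the DNA repair gene Ung was grouped, was the most mixed role, with 3 of 6 genes higher in Ly49C/I+ cells. Rrm1 and Rrm2 encode the large and the small subunit of ribonucleotide reductase, which makes deoxyribonucleotides. Rrm1 was at 11.33, 11.24 and 11.35 in Ly49C/I+ cells, against 10.98, 10.87 and 10.92 in Ly49G2+ cells, a difference of 0.38 ± 0.05 (SE) with a limma adjusted p of 0.00122. Rrm2 and the thymidine kinase gene Tk1 differed by 0.37 each, Tk1 as the mean of 2 rows at 0.28 and 0.46. Dut, Ung and Tyms did not pass. Dut, which removes dUTP, was at 9.06, 9.08 and 9.22 in Ly49C/I+ cells, against 9.20, 9.01 and 9.17 in Ly49G2+ cells. Its values interleaved, with a difference of -0.01 (95% interval -0.15 to 0.14) and a limma adjusted p of 0.972. Ung, which excises uracil from DNA, differed by 0.07 (limma adjusted p 0.415). Tyms, thymidylate synthase, was at 10.31, 9.94 and 10.22 in Ly49C/I+ cells, against 9.99, 9.96 and 10.07 in Ly49G2+ cells, with a difference of 0.15 (95% interval -0.04 to 0.34) and a limma adjusted p of 0.343. Its low value in Ly49C/I+ cells came from replicate 2, and without that array the difference was 0.26 and the limma adjusted p 0.0353.

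Of the 802 probe sets of the 53 genes, 91.5% were higher in Ly49C/I+ cells, against 48.8% of all probe sets of named genes. The subsets did not overlap with Ly49C/I+ cells above in 64.3% of the 802, and with Ly49G2+ cells above in 0.249%, against 9.90% and 8.70% of all probe sets. The 2 probe sets with Ly49G2+ cells above were 1 of Rpa1, at 4.20 in Ly49C/I+ cells against 4.52 in Ly49G2+ cells, and 1 of Tipin, at 11.04 in Ly49C/I+ cells against 11.38 in Ly49G2+ cells. In 22 of the 53 genes every probe set was higher in Ly49C/I+ cells, which held for 5.58% of the 17832 genes with at least 3 probe sets. Dut was unlike these, with 5 of its 12 probe sets higher in Ly49C/I+ cells, and so was Gins4, with 3 of 9. A single reading over 2 log2 units below the other 5 was found in 2 of the 802 probe sets, both of genes that did not pass. The fourth probe set of Tyms was at 10.96, 8.64 and 11.18 in Ly49C/I+ cells, against 11.15, 11.08 and 10.93 in Ly49G2+ cells. The sixth probe set of Gmnn was at 7.61, 4.22 and 7.39 in Ly49C/I+ cells, against 7.89, 7.10 and 7.23 in Ly49G2+ cells. Both low readings were on Ly49C/I+ replicate 2, which held 206 of the 246 probe sets of named genes that lay over 2 log2 units below the next lowest array. Smaller drops on this array were also found in genes that passed. For example, 1 probe set of Lig1 was at 8.35, 5.50 and 7.46 in Ly49C/I+ cells, against 7.21, 8.07 and 7.72 in Ly49G2+ cells. Without Ly49C/I+ replicate 2, 37 of the 53 genes were called higher in Ly49C/I+ cells, against 4.01% of all genes. In the authors' deposited table, whose values come from another summary of the probes, the log2 difference was 0.26 for Tyms and 0.35 for Gmnn, with unadjusted p-values of 0.00694 and 0.00983. Adjusted over all genes these were 0.0802 and 0.0971, so that neither gene passed there.

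**Figure D3:**
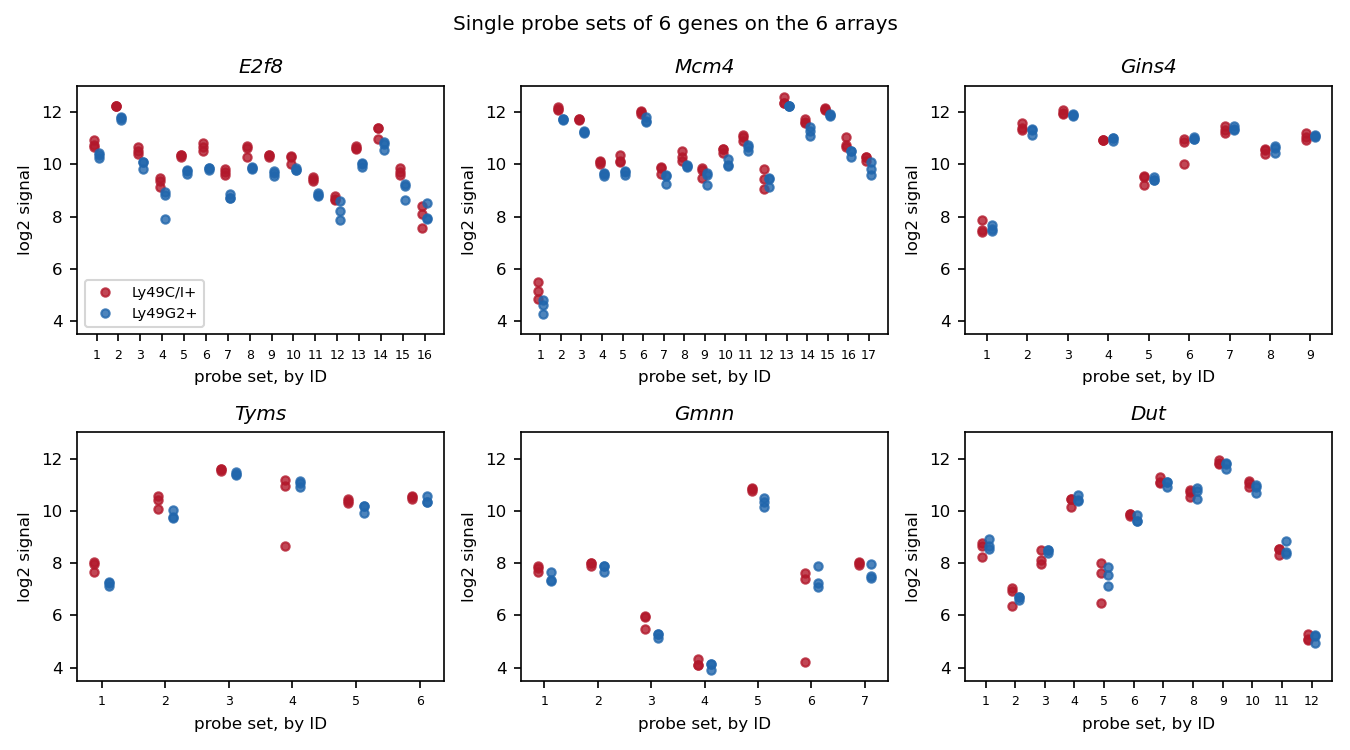
Log2 signal (vertical axis) of every probe set (horizontal axis, in order of ID) of 6 genes, with 3 Ly49C/I+ arrays in red left of 3 Ly49G2+ arrays in blue. E2f8 and Mcm4 have most probe sets higher in Ly49C/I+ cells, Gins4 and Dut do not, and Tyms and Gmnn each hold 1 low Ly49C/I+ reading.

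The genes of the lagging strand and the fork were higher in Ly49C/I+ cells in 4 of 4 cases. Timeless, which with Tipin protects a stalled fork, was at 8.86, 8.77 and 8.90 in Ly49C/I+ cells, against 8.45, 8.38 and 8.50 in Ly49G2+ cells. Its difference was 0.40 ± 0.052 (SE), with a limma adjusted p of 0.00108 and no overlap. Tipin was at 9.71, 9.90 and 9.70 in Ly49C/I+ cells, against 9.54, 9.43 and 9.53 in Ly49G2+ cells, a smaller difference of 0.27 ± 0.062 (SE) with a limma adjusted p of 0.0236. Lig1, the ligase that joins Okazaki fragments, differed by 0.34, and Fen1, the nuclease that trims their flaps, by 0.22. Fen1 stands on 2 rows of the array, which differed by 0.04 on 1 probe set and 0.41 on 3 probe sets. The call of Tipin was lost without replicate 2 of either subset (limma adjusted p 0.0687 without that of Ly49C/I+ cells and 0.0625 without that of Ly49G2+ cells), and that of Fen1 without any 1 of the other 4 arrays (0.0611 to 0.068).

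All 4 genes that restore chromatin behind the fork were higher in Ly49C/I+ cells. Uhrf1, which recognises hemimethylated DNA and recruits the methyltransferase Dnmt1, was at 9.73, 9.77 and 9.64 in Ly49C/I+ cells, against 9.27, 9.25 and 9.29 in Ly49G2+ cells. The arrays of each subset lay close together, and the difference was 0.44 ± 0.048 (SE) with a limma adjusted p of 0.000484. Dnmt1 itself differed by 0.29. Chaf1a, the large subunit of the histone chaperone CAF-1, was at 9.00, 8.87 and 8.88 in Ly49C/I+ cells, against 8.63, 8.56 and 8.49 in Ly49G2+ cells. This was a difference of 0.36 ± 0.056 (SE), with a limma adjusted p of 0.00298, and Chaf1b, its partner, differed by 0.33.

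The E2F transcription factors had the largest median difference of the 10 roles, 0.45, and 4 of 4 were higher in Ly49C/I+ cells. E2f8, a repressor of the family, had the largest difference of the 53 genes. It was at 10.18, 10.19 and 10.08 in Ly49C/I+ cells, against 9.63, 9.48 and 9.63 in Ly49G2+ cells, which is 0.57 ± 0.055 (SE) or 1.49-fold, with a limma adjusted p of 0.000276. The other repressor, E2f7, differed by 0.47. E2f1, an activator, was at 9.56, 9.44 and 9.49 in Ly49C/I+ cells, against 9.12, 9.21 and 9.17 in Ly49G2+ cells, a difference of 0.33 ± 0.049 (SE) with a limma adjusted p of 0.00237. The activator E2f2 differed by 0.43. Of the family members outside the 53, E2f3 was higher in Ly49C/I+ cells by 0.21 (limma adjusted p 0.0265), while E2f4, E2f5 and E2f6, at 0.09, -0.01 and -0.02, did not pass. The 2 kinds of E2F were not tested against each other.

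A list of 70 further genes of the same processes, of which 69 were measured, had a smaller median difference. Of these, 34 passed with more in Ly49C/I+ cells, 1 passed with more in Ly49G2+ cells and 34 did not pass, with a median of 0.17. Over all genes, 6.16% passed with more in Ly49C/I+ cells and 3.72% with more in Ly49G2+ cells. The 6 with the largest differences were Esco2, Dscc1, Cdk2, Clspn, Exo1 and Wdhd1. Esco2 encodes the acetyltransferase that establishes cohesion in S phase. It was at 9.98, 10.13 and 10.05 in Ly49C/I+ cells, against 9.44, 9.03 and 9.38 in Ly49G2+ cells, a difference of 0.77 ± 0.095 (SE) or 1.70-fold. Dscc1, of an alternative clamp loader, was at 7.41, 7.58 and 7.42 in Ly49C/I+ cells, against 6.72, 6.62 and 6.84 in Ly49G2+ cells, a difference of 0.74 ± 0.067 (SE) or 1.67-fold. Cdk2, the S phase kinase, was at 9.65, 9.70 and 9.62 in Ly49C/I+ cells, against 8.97, 8.91 and 9.04 in Ly49G2+ cells, a difference of 0.68 ± 0.049 (SE) or 1.60-fold. These 3 passed with limma adjusted p of 0.000898, 0.000205 and 8.15e-05. In each of the 3 the subsets did not overlap. Clspn, a checkpoint adaptor at the fork, was at 8.77, 8.65 and 8.74 in Ly49C/I+ cells, against 8.18, 8.12 and 8.09 in Ly49G2+ cells, a difference of 0.59. Exo1, an exonuclease, was at 8.58, 8.56 and 8.46 in Ly49C/I+ cells, against 8.04, 7.89 and 8.14 in Ly49G2+ cells, a difference of 0.51. Wdhd1, which links the helicase to polymerase alpha, was at 9.39, 9.45 and 9.41 in Ly49C/I+ cells, against 9.00, 8.83 and 8.97 in Ly49G2+ cells, a difference of 0.48. These 3 were separated as well. Of the 6, Cdk2, Clspn and Wdhd1 passed in all 18 alternative analyses, Esco2 and Dscc1 in 17 and Exo1 in 16 (limma adjusted p up to 0.0713 for Esco2 and 0.0726 for Exo1, and 0.067 for Dscc1 with p-values from the authors' deposited table). Those that did not pass included Rrm2b at -0.21 (limma adjusted p 0.211), Samhd1 at -0.10 (0.217) and Top1 at -0.10 (0.313).

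**Figure D4:**
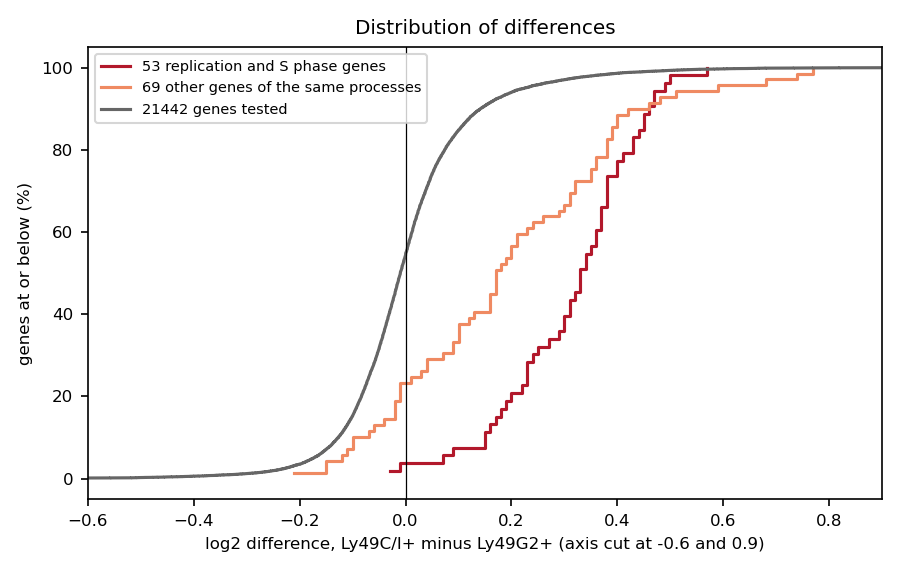
Share of genes (vertical axis, percent) at or below each log2 difference, Ly49C/I+ minus Ly49G2+ (horizontal axis, ending at -0.6 and 0.9), for the 53 genes, the 69 further genes and all 21442 genes. The medians are 0.33, 0.17 and -0.01.

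Across 18 alternative analyses, 17 of the 45 genes higher in Ly49C/I+ cells passed every time. Of 810 results for these 45 genes, 696 passed, 114 did not and 0 changed direction. The calls of Rfc1, Rfc3, Pold3, Rfc4 and Rpa1 were the least steady, passing in 4, 7, 7, 8 and 9 of the 18. The calls of Mcm4, Prim1 and Chaf1a were lost without variance moderation (adjusted p 0.0517, 0.0735 and 0.0683 in limma's unmoderated fit). Those of Timeless and E2f1 were lost with the median over probe sets (limma adjusted p 0.0802 and 0.131). Orc1 and Cdc6 lost theirs with either (up to 0.102 and 0.149). Gins3, Prim2, Pold1 and Fen1 were also lost without moderation, and Mcm5, Pcna, Rfc5 and Pole with the median over probe sets. Lost with either were also Mcm3, Mcm6, Gins1, Gins2, Rfc1, Rfc3, Rfc4, Rpa1, Pola1, Pold3, Lig1 and Tipin.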

How the data were processed

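The authors deposited a log2 value for each exon-level probe set and each of 6 arrays. Per the submitters' processing notes these came from Partek and RMA (robust multi-array averaging: background correction, quantile normalization and probe summary), with versions and genome build not given in the sources used here. Per the file headers, a second deposited table holds group means on the log2 scale, an ANOVA p-value, and a ratio and signed fold score of Ly49C/I+ over Ly49G2+ for 35556 transcript clusters. RNA of 100 ng per sample was amplified and biotin-labelled, per the labels' protocols.

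Probe sets were joined to clusters by unbroken runs of ID numbers (241383 joined, 193 left out). Run means and deposited means of Ly49C/I+ cells correlated at 0.987 across named clusters, and the differences between the subsets at 0.947. Symbols were updated through RefSeq of GRCm38.p6 (21023 accessions matched, 1926 symbols changed). Probe sets were averaged per cluster and then per gene, giving 21442 genes, and the signal of 1 gene was never set against that of another. The difference, Ly49C/I+ minus Ly49G2+, was tested two-sided in R 4.3.3 with limma 3.58.1 (linear fit with moderated variances, no trend, no filter), adjusted by Benjamini-Hochberg over all genes, with a threshold of 0.05. Joins and figures used Python 3.11.15 and matplotlib 3.10.9.

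The genes, the related list and the markers were chosen with earlier results of these data known. In each role, the gene of largest difference and that of largest p are given on every array, as are the 6 passing related genes of largest difference and any passing in Ly49G2+ cells. Tyms on every array, the single probe sets, the related family members outside this rule and the genes singled out for their alternatives were picked after their values were seen. Replicate numbers were not used to pair the samples in the main test. Deviations of same-numbered arrays from their group means correlated at -0.08, -0.19 and -0.05. With so few arrays this cannot tell whether same-numbered arrays shared animals or a culture. Arrays give no read depth.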

Additional observations from a re-analysis of the deposited data

How the results depend on the processing

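The direction of the count over the 53 genes held in all 18 alternatives, with 0 genes higher in Ly49G2+ cells in each. Genes higher in Ly49C/I+ cells numbered 43 after quantile normalization again, 44 after median centring and 34 with the authors' deposited p-values. Of all genes, 5.96%, 6.05% and 3.24% were called in that direction in these 3 analyses. The 53 genes gave 24 calls without variance moderation and 25 with the median over probe sets. There all genes called in that direction fell to 554 (2.58%) and 467 (2.18%), against 1321 (6.16%). With 1 array left out the calls among the 53 numbered 36 to 40, where 4.01% to 5.19% of all genes were called in that direction. The median difference moved to 0.37 with the median over probe sets. With the replicate number as a block, the 53 genes gave 37 calls higher in Ly49C/I+ cells and the related list 25. Of all genes, 4.58% were called in that direction there. In Ly49C/I+ cells the related list gave 16 without moderation and 19 with the median over probe sets, against the 2.58% and 2.18% of all genes. In Ly49G2+ cells the related list gave 3 after quantile normalization again and 2 with array weights, where 1024 and 1077 of all genes were called in that direction. It gave 0 with no moderation, median centring, the median over probe sets or the replicate block. It also gave 0 with probe sets above the lower quartile, an alternative chosen after seeing the data, and 0 to 1 with 1 array left out. Differences near 0 changed sign. Gins4 ranged from -0.10 to 0.00 with 1 array left out (0.00 without Ly49C/I+ replicate 2), Rpa3 from -0.02 to 0.28 (-0.02 without Ly49G2+ replicate 2) and Dut from -0.07 to 0.03 (above 0 without Ly49C/I+ replicate 1 or 2 or Ly49G2+ replicate 1 or 3), and Dut was 0.09 in the authors' deposited table. The cause of these changes was not tested. With 3 arrays per subset, a gene that did not pass is not shown to be equal.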
